A study of Schizosaccharomyces pombe with 3 samples.

Results

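The outer parts of the inferred centromere 2 of *Schizosaccharomyces pombe* are 2 runs of tiling-array probes on either side of a dim middle. The left side has probes 40441 to 40880 and the right side probes 41320 to 41560. Together they hold 681 of the 174063 numbered probes of the array, 440 on the left and 241 on the right. They were chosen by the wildtype channel: the whole stretch is the longest run of blocks of 40 probe numbers in which both strands had like wildtype signal, and the 439 probes of its dim middle were left out. That the stretch is centromere 2 was inferred in earlier work from its place between *atf1* and *clr1*, and the inference was not repeated here. Probe sequences and positions were not used here.

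In fission yeast a centromere has a central core flanked by inner repeats, and the outer repeats, *dg* and *dh*, lie beyond them as inverted copies on both arms. The outer repeats are packed in heterochromatin marked by methylated histone H3 lysine 9, yet RNA polymerase II transcribes them from both strands. RNA interference and the exosome turn over this RNA, and loss of silencing is read as more RNA from the repeats. Dhp1 is the fission yeast homolog of Rat1 and Xrn2, a nuclear exoribonuclease that degrades RNA from its 5′ end and acts in transcription termination, and Din1 is its pyrophosphohydrolase partner.

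The study asked whether mutants of this enzyme pair accumulate RNA from silent regions. RNA depleted of ribosomal RNA was hybridised to 3 Agilent 2-colour arrays, with the mutant in Cy5 and a wildtype strain in Cy3 on each. On 2 arrays, biological replicates on different slides, *dhp1-1* (strain P1088) was set against wildtype P1087, and 1 array, on the slide of replicate 1, compared *din1Δ* (P1044) with wildtype P344. All cells grew at 30 °C. The *dhp1-1* allele is temperature-sensitive, codes for a protein with a truncated carboxyl terminus and carries *ura4+*, so *dhp1-1* was measured at a permissive temperature, and its strain also carries a *ura4+* reporter in the outer repeat of centromere 1 and an *ade6+* reporter at *mat2*. In *din1Δ* the gene is deleted. The strain list of the study has no entry for P1087, P344 or P1044, so their reporters are not known here. The probes of *dhp1* and *din1* were not identified, so the mutants were not checked against the arrays. Over all probes, 67.2% to 71.7% were well above background in the wildtype channel and 66.1% to 84.3% in the mutant channel, and 0 spots were saturated. Dyes were not swapped, so a dye effect, on single probes or over a stretch, and a mutant effect cannot be told apart.

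The ratio used below is the log2 of mutant over wildtype signal after background correction and loess normalisation. The sides fill 17 windows of 40 probe numbers, L1 to L11 from the left end to the inner left edge and R1 to R6 from the inner right edge to the right end. Each window was split into an odd-numbered and an even-numbered strand tile of 20 probes, which gives 34 of the 8704 tiles tested. Odd and even probes were taken as opposite strands, because over the whole array wildtype signals of probes 2 numbers apart had an r of 0.67 to 0.69, and adjacent probes only -0.10 to 0.11. Which parity reads which strand is not known here.

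The wildtype signal, which chose the members, was uneven within each side. The log2 signal of the tiles ranged from 7.01 to 10.21 on the *dhp1-1* replicate 1 array, from 7.01 to 10.40 on replicate 2 and from 6.88 to 10.04 on the *din1Δ* array. The brightest tile was the odd strand of R6, at the right end, at 10.21, 10.40 and 10.04, and the odd strand of L5 came next at 9.88, 10.05 and 9.69. The dimmest tiles lay in R1, beside the middle, at 7.03, 7.09 and 6.88 on the odd strand. At the left end the strand medians of the wildtype signal differed by 0.82 in the last window inside and by 1.31 in the first window outside, against the limit of 1 log2 unit, and at the right end by 0.28 inside and 1.27 outside. The inner edges were less sharp. The mean log2 wildtype signal was 7.39 in L11 and 7.54 in the next window inward, and 6.98 in R1 and 7.41 in the next window inward.

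**Figure D1:**
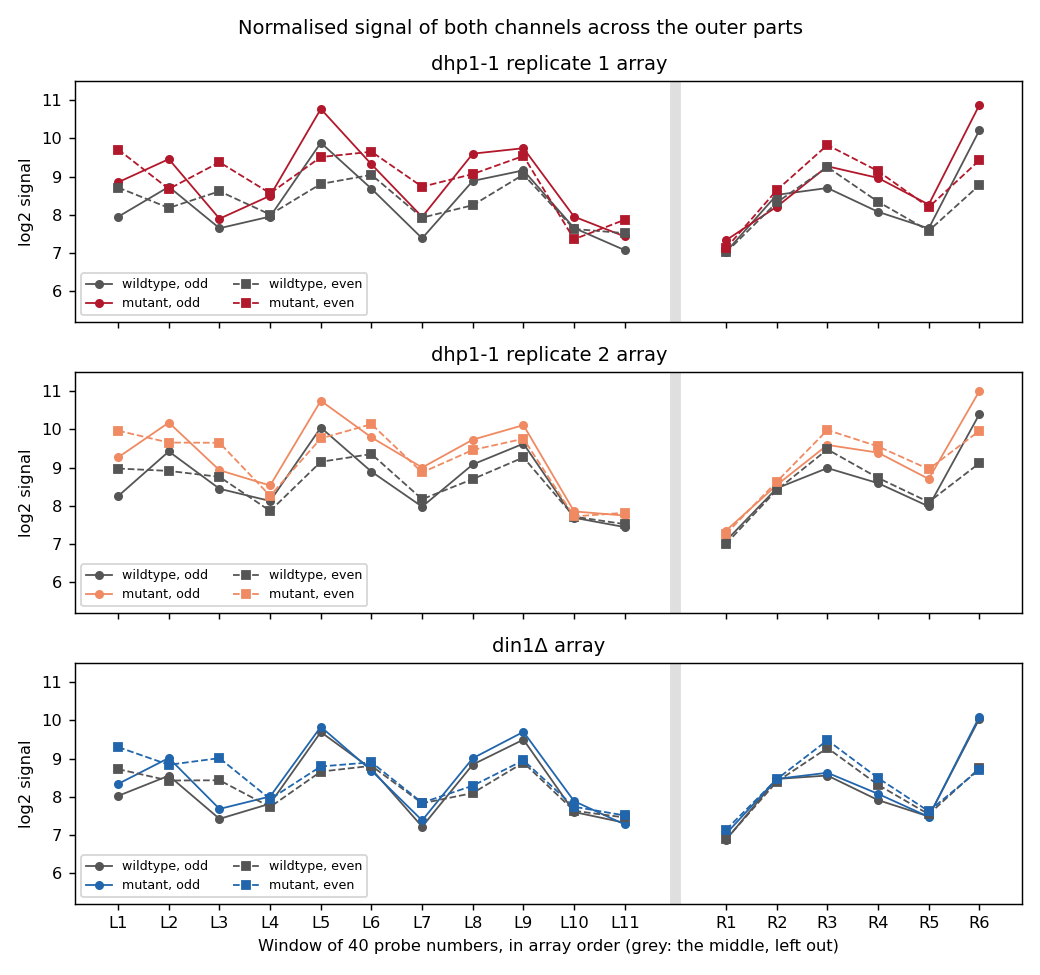
Mean normalised log2 signal of the wildtype (grey) and mutant (coloured) channels in each window of 40 probe numbers, with 1 panel per array, circles and solid lines for odd and squares and broken lines for even probes, and the middle left out at the grey bar. Wildtype tile means span 7.01 to 10.21 on the replicate 1 array, and the mutant line lies above the wildtype line in most *dhp1-1* windows.

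The share of probes above background gives detection without a ratio. In the wildtype channel of the *dhp1-1* arrays, 69.3% and 72.4% of the 681 probes were well above background, and in the mutant channel 83.7% and 83.6%. On the *din1Δ* array the shares were 59.6% in wildtype and 63.0% in the mutant. The gap between mutant and wildtype was 14.4 percentage points in replicate 1, where it was 12.7 points over all probes, 11.2 points in replicate 2 against 3.70 over all probes, and 3.38 points in *din1Δ* against -1.13. The gap of replicate 1 was thus close to that of the whole array, and the gaps of the other arrays were not. The dim middle, which is not part of the members, had gaps of 14.1 and 9.11 points in the *dhp1-1* replicates and 2.05 points in *din1Δ*. Gaps of this size were thus not particular to the outer parts.

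The right side had slightly larger shares than the left on each array. On the *dhp1-1* replicate 1 array 67.7% of the left and 72.2% of the right probes were above background in wildtype, and 82.0% and 86.7% in the mutant. On replicate 2 the wildtype shares were 70.7% and 75.5% and the mutant shares 82.5% and 85.5%. On the *din1Δ* array the left side went from 58.2% in wildtype to 61.8% in the mutant and the right side from 62.2% to 65.1%. The strands of a side were within a few points of each other except in the mutant channel on the left of replicate 2, where 86.8% of the odd and 78.2% of the even probes were above background, on wildtype shares of 71.8% and 69.5%. In the middle only 15.0% to 21.6% of the probes were above background in wildtype. Its mutant shares were 35.8% and 28.0% in the *dhp1-1* replicates and 17.1% in *din1Δ*. Of the 681 members, 440 were above background in both channels on both *dhp1-1* arrays and 74 in neither channel of either. The mutant channel alone was above background on both arrays at 38 probes, or 5.58% of the members, where 2.67% of all probes met this, and the wildtype channel alone at 0 members and 0.0552% of all probes. In *din1Δ* the mutant alone was above background at 34 members (4.99%, against 2.6% of all probes) and the wildtype alone at 11 members (1.62%, against 3.73%).

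**Figure D2:**
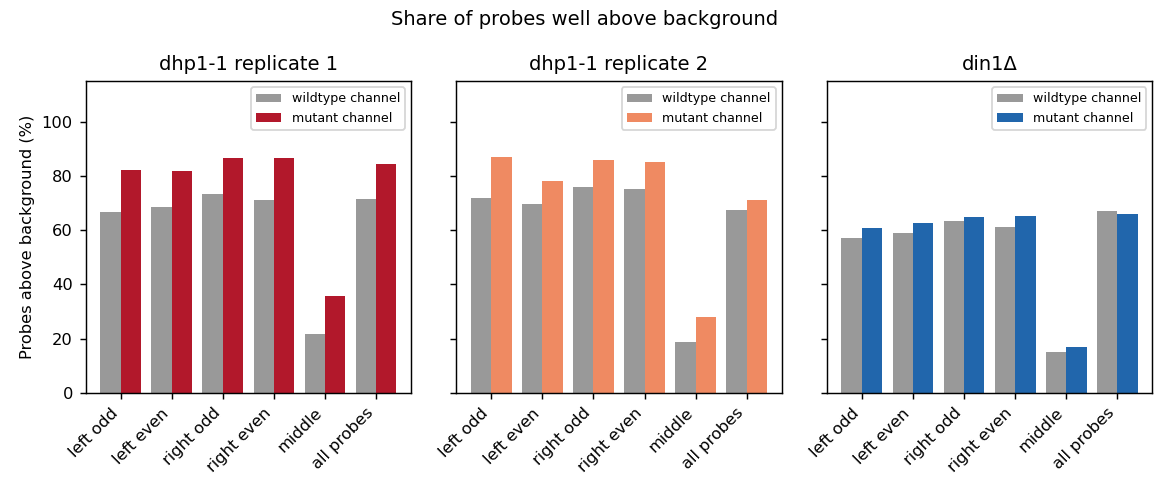
Percent of probes well above background in the wildtype (grey) and mutant (coloured) channels, with 1 panel per array, for each strand of each side, the middle and all probes. Mutant shares exceed wildtype shares on both sides of both *dhp1-1* arrays (82.0% against 67.7% on the left of replicate 1). The middle is lower in both channels but also has the larger share in the mutant (35.8% against 21.6% in replicate 1). The *din1Δ* bars lie close together.

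Signal at the probes of the outer parts was higher in *dhp1-1* than in wildtype on both arrays. The mean log2 ratio over the 681 probes was 0.55 in replicate 1 and 0.59 in replicate 2, or 0.57 ± 0.033 (SD, n = 2), which is 1.48-fold. Its standard error in the fit was 0.087 and its 95% interval 0.39 to 0.75 (adjusted p = 5.08e-05 from limma over 8728 features). With 2 replicates, the fit takes most of this error from the tiles of the whole array and little from the spread of the stretch itself. Ratios were above 0 at 84.4% of the probes in replicate 1 and at 90.7% in replicate 2, where all probes of the array gave 51.0% and 49.8%. The deposited log2 table, which holds 0 for ratios that the scanner software did not call, gave an adjusted p of 0.0542 (limma).

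In *din1Δ* the ratio over the same probes was 0.17, which is 1.12-fold, on the 1 array. It was above 0 at 69.6% of the probes, against 49.5% of all probes. With 1 array there is no test of *din1Δ* against wildtype. The *dhp1-1* ratio was 0.40 above that of *din1Δ*, with a standard error of 0.15 and a 95% interval of 0.09 to 0.72, which missed the 0.05 threshold after adjustment (adjusted p = 0.0886 by limma, a fit that assumes that *din1Δ* varies as *dhp1-1* does). On the shared slide the difference between *dhp1-1* replicate 1 and *din1Δ* was 0.38. The mutants had different wildtype partners, and a difference between P1087 and P344 cannot be told apart from one between the mutants.

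The mean *dhp1-1* ratio was above 0 at the probes of both sides and both strands. Probes of the sides may share sequence, which was not tested, so a ratio cannot be assigned to RNA of 1 side. The left side was at 0.58 and 0.62 in the replicates, with a mean of 0.60 ± 0.025 (SD, n = 2, adjusted p = 2.81e-05 from limma). The right side was at 0.48 and 0.55, with a mean of 0.52 ± 0.046 (SD, n = 2, adjusted p = 0.000146 from limma). The left exceeded the right by 0.082, with a 95% interval of -0.10 to 0.26 (adjusted p = 0.526 from limma). The replicates were at 0.097 and 0.068, and the interval rests mostly on the spread of tiles over the whole array. Split by strand, the left side was at 0.61 on odd and 0.59 on even probes, and the right side at 0.48 and 0.55. Over both sides the odd minus the even strand was -0.011 and -0.013 in the replicates. In *din1Δ* the left side was at 0.21 and the right side at 0.10.

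Of the 34 tiles, 32 were above 0 on both *dhp1-1* arrays, and 30 were called higher in *dhp1-1* at an adjusted p under 0.05 (limma), 20 of them on the left and 10 on the right. That is 88.2% of the member tiles, where 18.8% of all 8704 tiles were called higher. No member tile was called lower by limma, none at an unadjusted p under 0.05 either, while 10.4% of all tiles were called lower. At 1.6-fold or more on both *dhp1-1* arrays there were 9 member tiles, or 26.5%, against 2.37% of all tiles. With the deposited log2 table only 7 of the 34 tiles were called higher, against 1.55% of all tiles.

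Tile ratios in *dhp1-1* replicate 1 ran from -0.31 to 0.99 with a median of 0.59, and in replicate 2 from 0.01 to 1.02 with a median of 0.63. In *din1Δ* they ran from -0.05 to 0.58 with a median of 0.16, and 30 of the 34 were above 0. No member tile reached 1.6-fold in *din1Δ*, where 0.31% of all tiles did. Both *dhp1-1* replicates exceeded *din1Δ* at 29 of the 34 tiles. The difference between the mutants was called at 16 tiles, each higher in *dhp1-1* (adjusted p under 0.05 from limma), 9 on the left and 7 on the right. Over all tiles 8.62% were called higher and 4.48% lower in *dhp1-1* than in *din1Δ*. Of the 18 other member tiles, 4 were below *din1Δ*.

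**Figure D3:**
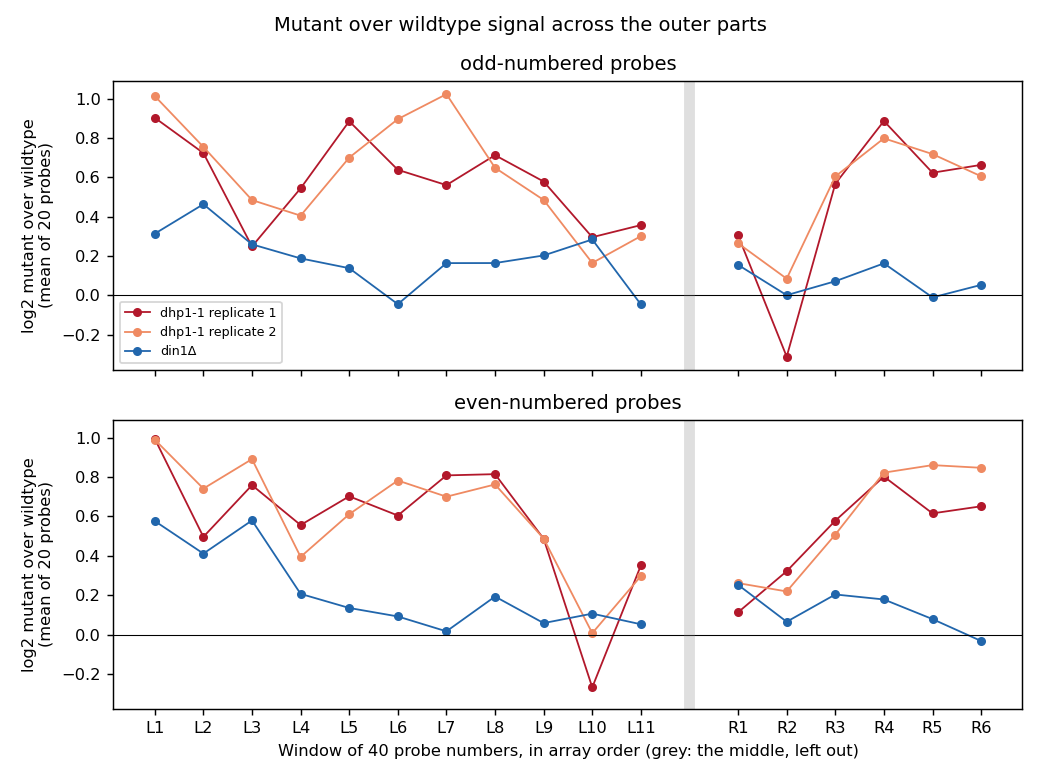
Mean log2 ratio of mutant over wildtype in each window, with odd probes above and even probes below, 1 point per array, and the middle left out at the grey bar. The *dhp1-1* replicates are at 0.90 to 1.01 in L1 and are low together in L10 and R2, while *din1Δ* is highest in L1 to L3.

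The 3 highest left tiles in *dhp1-1* lay at the left end. The even strand of L1 (probes 40441 to 40480) was at 0.99 and 0.99 in the replicates, and its odd strand at 0.90 and 1.01. The even strand of L3 (40521 to 40560) was at 0.76 and 0.89. These windows were also those of the highest *din1Δ* ratios, which were 0.58 on the even strands of L1 and L3 and 0.46 on the odd strand of L2 (40481 to 40520). The ratios of the mutants on the even strands of L1 and L3 did not pass the test of their difference (adjusted p = 0.0772 and 0.343 from limma).

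A handful of very bright probes lay in these windows. A ratio over 4-fold on all 3 arrays was met by 5 members, all within L1 to L3, which is 0.734% of the members against 0.0597% of all probes. Probe 40448 was at 4.71, 3.07 and 3.99 on the *dhp1-1* replicate 1, replicate 2 and *din1Δ* arrays. Its spot intensity was 8269 in wildtype and 414521 in the mutant on the first of these. Probe 40482 was at 4.31, 4.32 and 3.60, and probe 40558 at 3.56, 2.79 and 3.41, which makes these 3 the highest in *din1Δ*. Probe 40536 was at 2.76, 3.24 and 3.21.

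Probe 40463 differed between the mutants in size, with 6.85 and 5.42 in *dhp1-1* and 2.14 in *din1Δ*, on wildtype signals of 11.16, 11.13 and 15.29. It had the highest *dhp1-1* ratio of all members. Next on the left came probe 40461, not well above background in wildtype on either *dhp1-1* array, which was at least 27.6-fold higher in *dhp1-1*, the mean mutant signal set against the higher of the wildtype signal and the lowest wildtype signal above background on each array. Its *din1Δ* ratio was 0.37, with neither channel above background. These probes were chosen after their values were seen, except those that are the 3 highest of a side or of *din1Δ*.

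Without these 5 probes, a step added after their values were seen, the 3 outermost left windows went from 0.69 to 0.52 in *dhp1-1* replicate 1, from 0.81 to 0.68 in replicate 2 and from 0.43 to 0.31 in *din1Δ*. The medians over their 120 probes were 0.21, 0.58 and 0.22. The odd strand of L1 was then at 0.59, 0.78 and 0.22, and the even strand of L3 at 0.49, 0.66 and 0.28. The odd strand of L1 still held probe 40461, at 4.79 and 4.78 in the *dhp1-1* replicates and 0.37 in *din1Δ*. Its mean without that probe was not taken. Over all outer parts the *dhp1-1* mean was 0.54 without the 5 probes, and *din1Δ* was at 0.14. The 320 probes of L4 to L11 were at 0.54 and 0.54 in the *dhp1-1* replicates and at 0.12 in *din1Δ*, and among them 9 probes, or 2.81%, passed 1.6-fold in *din1Δ*, against 25 of 120 in L1 to L3.

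From L5 to L8 the *dhp1-1* ratio stood at 0.56 to 1.02 on both strands and both arrays, while *din1Δ* lay between -0.04 and 0.19. All 8 tiles of these windows were called higher in *dhp1-1* than in *din1Δ* (adjusted p 0.00206 to 0.029 from limma). The windows were picked after these values were seen, so that all 8 were called restates the choice. L7 shows this on a dim wildtype background. Its odd tile had a wildtype signal of 7.38 and 7.98, ratios of 0.56 and 1.02, and 10 and 14 of its 20 probes above background in wildtype against 18 and 20 in *dhp1-1*. On the *din1Δ* array the same tile had 5 probes above background in wildtype and 6 in the mutant.

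The lowest left tiles were in L10 (40801 to 40840) and L11 (40841 to 40880), beside the middle. The even strand of L10 was at -0.27 and 0.01, its odd strand at 0.30 and 0.17, and neither was called (adjusted p = 0.319 and 0.0563 from limma). Both strands of L11 were called, with 0.35 and 0.30 on the even and 0.36 and 0.30 on the odd strand. In *din1Δ* the odd strand of L10 was at 0.28, between the *dhp1-1* replicates, and the other tiles of L10 and L11 between -0.05 and 0.11.

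On the right, too, the lowest tiles lay beside the middle. The highest tiles were the odd strand of R4 (41441 to 41480) at 0.89 and 0.80 in the *dhp1-1* replicates, its even strand at 0.80 and 0.82, and the even strand of R6 (41521 to 41560) at 0.65 and 0.85. The same 3 tiles were at 0.16, 0.18 and -0.03 in *din1Δ*, and all 3 differed between the mutants (adjusted p = 0.00558, 0.00856 and 0.00236 from limma). The lowest 3 were in R1 (41321 to 41360) and R2 (41361 to 41400). The odd strand of R2 was at -0.31 and 0.09 and was not called, while its even strand was at 0.32 and 0.22 and was called (adjusted p = 0.429 and 0.0252 from limma). The even strand of R1 was at 0.11 and 0.26 and was not called (adjusted p = 0.125 from limma).

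The highest single probes of the right side were below those of the left end. The medians of the right side were 0.53 and 0.55 in the *dhp1-1* replicates, against 0.21 and 0.58 in L1 to L3, and 31.5% and 39.8% of its probes passed 1.6-fold, against 31.7% and 42.5%. The 3 highest right-side probes in *dhp1-1* were probe 41479 at 1.48 and 1.31, probe 41449 at 1.27 and 1.33, and probe 41478 at 1.18 and 1.37, which is 2.63-fold, 2.46-fold and 2.42-fold over both arrays. In *din1Δ* they were at 0.24, 0.53 and 0.36. The highest right-side ratio was 1.48 in replicate 1 and 1.90 in replicate 2, against 6.85 and 5.42 on the left.

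Counted by probe, 174 members passed 1.6-fold on both *dhp1-1* arrays, 116 on the left and 58 on the right, or 25.6% against 5.15% of all probes. In *din1Δ* 40 members passed, 34 of them on the left, or 5.87% against 5.88% of all probes. The *din1Δ* share was that of the whole array. Over the members the ratios of the *dhp1-1* replicates correlated at r = 0.78 (Spearman 0.66, n = 675 probes), and those of *din1Δ* with *dhp1-1* at 0.47 and 0.39 (Spearman 0.15 and 0.08), given as a description over probes that share arrays. The Pearson values of *din1Δ* include the very bright probes of the left end.

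With all members included, the mean *dhp1-1* ratio rose with wildtype signal. With probes ranked by the wildtype channel of the other *dhp1-1* array, the mean ratio of replicate 1 was 0.19 in the dimmest of 4 equal classes, then 0.49, 0.65 and 0.86 in the brightest. Replicate 2 had 0.38, 0.59, 0.68 and 0.72. For *din1Δ*, ranked by the wildtype channel of replicate 1, the 4 classes had 0.11, 0.14, 0.16 and 0.25. The brightest classes include the 5 very bright probes of the left end, and the class means were not taken without them. The part of the background offset of 50 in the low ratios of the dimmest class was not tested.

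The inner edges of the rule did not mark where the raised ratio ended. The 4 windows of the middle next to the sides, 2 on each flank, were at 0.57 and 0.45 in the *dhp1-1* replicates and at 0.14 in *din1Δ*. The 279 probes further in were at -0.09 and -0.05 in *dhp1-1* and at 0.06 in *din1Δ*, on a dim wildtype signal. At the left end the first window outside was at -0.18 and 0.13, while the first window past the right end was still at 0.81 and 0.77, and at 0.30 in *din1Δ*. Since the wildtype level placed these edges, the values are a description.

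The sides lie around 1 middle, and their likeness as mirror images was measured by pairing each right probe with the left probe at the same distance from an axis. With the axis midway between the inner edges, which pairs probes of the same parity, the *dhp1-1* ratios of the sides correlated at r = 0.41 (Spearman 0.43, n = 237 pairs), with 0.31 in replicate 1 and 0.35 in replicate 2. In *din1Δ* the correlation was 0.08 (n = 240). Pairs of opposite parity, 1 number off on either side, gave 0.41 to 0.48 in *dhp1-1* and -0.08 to -0.01 in *din1Δ*. These are correlations across probes of 1 or 2 arrays, which are not independent replicates.

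Moving the axis sharpened the likeness at 1 place. Within 40 numbers either way, the *dhp1-1* correlation peaked at a shift of -11 with r = 0.76 (Spearman 0.72, n = 237), with 0.74 and 0.69 in the replicates. The odd shift pairs each right probe with a left probe of opposite parity. The best shift with like parity gave 0.53. The *din1Δ* ratio and the wildtype signal peaked at the same shift of -11, at 0.33 and 0.63, and the peak was chosen on these values. When the axis was moved as far as 200 pairs remained, shifts more than 20 numbers from the peak reached 0.46 in *dhp1-1*, 0.20 in *din1Δ* and 0.44 in the wildtype signal.

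**Figure D4:**
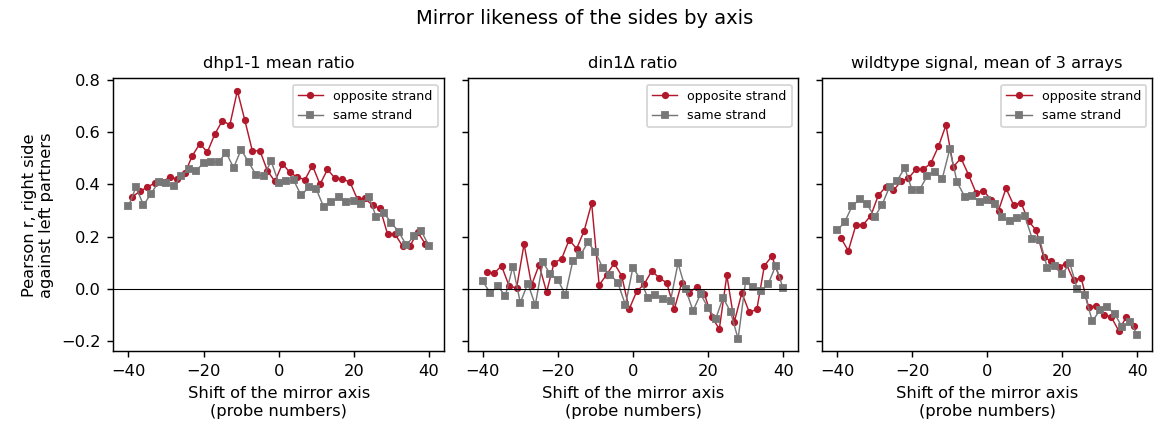
Pearson correlation of right-side probes with their left partners against the shift of the mirror axis in probe numbers, for the *dhp1-1* mean ratio, the *din1Δ* ratio and the wildtype signal, with odd shifts (opposite strand) in red and even shifts (same strand) in grey. All 3 peak at a shift of -11, at 0.76, 0.33 and 0.63.

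At this axis the right side pairs with probes 40629 to 40869 of the left. The left partners were at 0.52 and 0.58 in the *dhp1-1* replicates and the right side at 0.48 and 0.55, and in *din1Δ* they were at 0.11 and 0.10. The mean difference of left minus right over pairs was 0.041 and 0.036 in the *dhp1-1* replicates and 0.015 in *din1Δ*, with an SD over pairs of 0.33, 0.33 and 0.34.

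**Figure D5:**
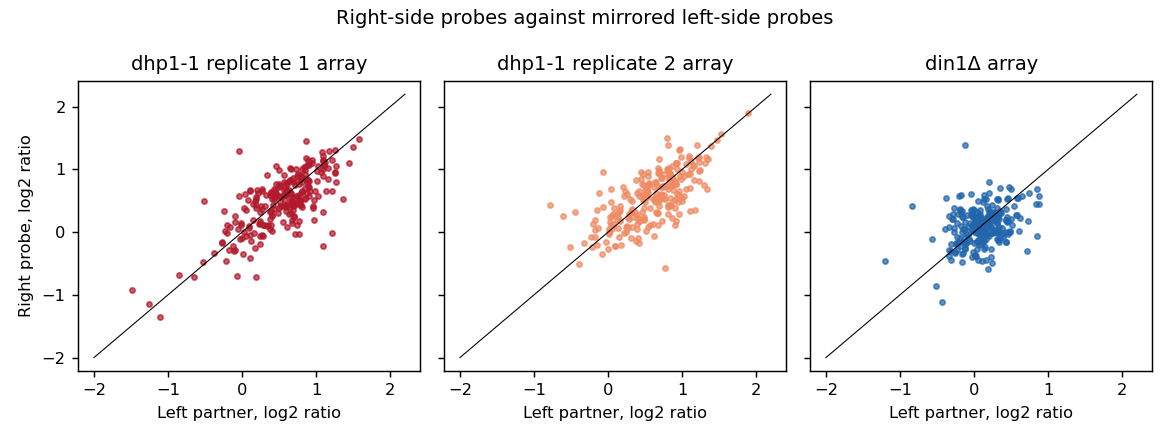
Log2 ratio of each right-side probe (vertical axis) against that of its left partner at a shift of -11 (horizontal axis), with 1 panel per array and 1 point per pair, and the line of equal values in black. The *dhp1-1* pairs lie along the line (r = 0.74 and 0.69) and the *din1Δ* pairs in a cloud near 0 (r = 0.33).

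Window by window the *dhp1-1* ratios were also alike, and more so with the strands exchanged. Whole windows were paired from the inner edges, which is a shift of 1 and not the shift of -11. Probe by probe, that shift gave an r of only 0.48 in *dhp1-1*. Setting L11 against R1, L10 against R2 and so on to L6 against R6, with the strands exchanged, the *dhp1-1* ratios of the 12 tile pairs correlated at 0.95 and 0.94 in the replicates, against 0.61 and 0.85 with the strands kept. In *din1Δ* the values were 0.18 and -0.26. The low tiles show the exchange: the even strand of L10 was at -0.27 and 0.01 and the odd strand of R2 at -0.31 and 0.09, while the odd strand of L10 was at 0.30 and 0.17 and the even strand of R2 at 0.32 and 0.22.

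At the shift of -11, single probes within these low tiles were also partners. The lowest left probe of L10, 40820, was at -1.11 and -0.40 in *dhp1-1*, and its partner 41369, the lowest of the right side, at -1.35 and -0.50. Both were above 0 in *din1Δ*, at 0.04 and 0.33. These 2 probes were named after their values were seen. Among the highest right probes, 41479 at 1.48 and 1.31 had a partner at 1.58 and 0.97, and 41449 at 1.27 and 1.33 had one at 1.09 and 0.97.

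Partners were more alike within an array than across arrays. The left of replicate 1 correlated with the right of replicate 2 at 0.46, and the left of replicate 2 with the right of replicate 1 at 0.53. Among pairs with both probes above background in both channels on both arrays the *dhp1-1* correlation was 0.74 (n = 142), and for *din1Δ*, on its own array, 0.31 (n = 134). Among pairs in which neither probe met this it was 0.69 in *dhp1-1* (n = 50) and 0.45 in *din1Δ* (n = 71). Whether partner probes share sequence, and so read the same RNA, was not tested.

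The outer 188 probes of the left side, 40441 to 40628, had no partner within the right side. They were at 0.67 and 0.69 in the *dhp1-1* replicates and at 0.34 in *din1Δ*, above the left partners on all 3 arrays. Without the 5 very bright probes, which all lie among them, they were at 0.57, 0.61 and 0.26, which leaves *dhp1-1* close to the left partners at 0.52 and 0.58. Their partners at the same axis fall past the right end, on probes 41561 to 41748, where the ratios were 0.50, 0.47 and 0.29. Across this pairing r was 0.020 in *dhp1-1* (n = 184) and 0.21 in *din1Δ* (n = 188). Of the 5 very bright probes only 40558 had a partner over 4-fold on all 3 arrays, at 3.64, 2.58 and 2.36.

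Of the 2 next longest runs of the array with like wildtype signal on both strands, 1 had a lower and 1 a higher *dhp1-1* ratio than the outer parts. Both runs were taken whole, while the outer parts had their dim middle left out. They lie next to each other, at probes 140761 to 141640 and 141681 to 142400. Above background in both channels on all arrays were 404 of 880 and 527 of 720 probes, against 382 of 681 in the outer parts. The longer one (880 probes) was at 0.41 and 0.45 in the replicates and the shorter one (720 probes) at 0.64 and 0.74, while *din1Δ* was at 0.10 in both. The difference between the mutants was called in the shorter run alone of these 2 (0.59, adjusted p = 0.0134, against 0.33, adjusted p = 0.177, from limma). Pooled over 1600 probes they were at 0.51 and 0.58 in the *dhp1-1* replicates, and the outer parts exceeded them by 0.020 in *dhp1-1*, with a 95% interval of -0.16 to 0.20 (adjusted p = 0.894 from limma), and the direction turned with filters on dim probes and with medians over probes.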

How the data were processed

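Each of 3 tiling arrays took RNA of a mutant (*dhp1-1* on 2, *din1Δ* on 1) and of a wildtype strain. The authors scanned the arrays with Agilent Feature Extraction 10.7.3.1 and deposited spot and background intensities, the log10 ratio (Cy5 over Cy3) with its p-value, flags, and a table of log2 ratios that holds the scanner ratio and 0 where that p-value is 0.05 or more. All per-sample columns belong to this series. The genome build was not needed.

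Median spot intensities were background-corrected (normexp, offset 50) and loess-normalised within arrays with limma 3.58.1 in R 4.3.3, without control and outlying spots, of which the members had 3, 3 and 1. Mean spot intensities were not used here. Strand tiles of 20 probes (at least 5 usable) and the stretches were fitted with lmFit and eBayes over 8728 features, with Benjamini-Hochberg adjustment. The fit was tested on simulated data. Tables used Python 3.11.15, pandas 2.3.3 and numpy 2.4.6, figures matplotlib 3.10.9. The number of arrays limits the precision, and no sequencing depth applies.

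The members, lists and tests were chosen with earlier results of these data known. Named were the 3 highest and 3 lowest tiles of each side in *dhp1-1*, the 3 highest tiles in *din1Δ*, and per side the 3 probes with the highest *dhp1-1* ratio among those above background in Cy5 on both arrays. Alternatives were other background correction, normalisation, filters, medians, window sizes, edges and mirror axes, and leaving out each replicate. Taking the slide as a block came to *dhp1-1* replicate 1 minus *din1Δ* (0.38), the same value as without replicate 2, with no test.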

Additional observations from a re-analysis of the deposited data

Results flagged for a closer look

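The difference between *dhp1-1* and *din1Δ* was called at 16 of the 34 strand tiles, each higher in *dhp1-1* (adjusted p under 0.05 from limma), against 8.62% of all tiles. The 8 tiles of L5 to L8 and the right tiles of R4 to R6 are among them. The fit has 1 *din1Δ* array and takes its spread from the *dhp1-1* arrays, and the mutants had different wildtype strains, whose part cannot be told apart.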

How the results depend on the processing

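The *dhp1-1* ratio over the outer parts, the left side and the right side stayed above 0 under every alternative run. With the deposited log2 table it was no longer past the threshold (0.65, 0.68 and 0.59, adjusted p = 0.0542, 0.0525 and 0.0587 from limma). With each replicate left out in turn, with no test, it was 0.55 to 0.59 over the outer parts, 0.58 to 0.62 on the left and 0.48 to 0.55 on the right, the left minus the right was 0.068 to 0.097 (0.082 as reported), and *dhp1-1* minus *din1Δ* 0.38 to 0.42. That difference missed the threshold under every alternative with a test, with an adjusted p of 0.0671 to 0.367 from limma. The left minus the right was 0.015 with medians over probes, 0.054 with median centring, and 0.16 and 0.18 with the filters for 1 and both channels, and was not called under any of these (adjusted p = 0.244 to 0.932 from limma). The number of tiles called higher was 26 to 30 of 34 with other normalisation or medians, 30 of 32 and 27 of 29 with those filters, which leave fewer tiles, and 7 of 34 with the deposited table. It was 56 of 68 in windows of 20 numbers and 14 of 16 in windows of 80, which hold other numbers of tiles. The *din1Δ* ratio moved to 0.27 with the scanner ratio and to 0.13 with medians over probes as well as with the deposited table.

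The mirror likeness at the inner edges moved in *dhp1-1* to 0.36 with median centring, 0.31 and 0.33 when probes had to exceed background in at least 1 channel or in both, and 0.76 with the axis moved. In *din1Δ* it moved to 0.21 and 0.22 with these filters and 0.33 with the axis moved, and turned to -0.012 with the scanner ratio and -0.052 with the deposited table. The outer parts minus the other stretches, whose alternatives were added after seeing the data, turned to -0.033, -0.015 and -0.051 with those filters and probe medians, and were 0.0077 to 0.032 with each replicate left out. The causes were not tested.

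With 2 times the local background in place of the flag, the share above background moved to 68.3% in wildtype of *dhp1-1* replicate 2, to 85.6% and 79.3% in the *dhp1-1* mutant channels of replicates 1 and 2, and to 63.1% and 68.0% in wildtype and mutant of *din1Δ*. Signal over background limits the ratios, since 382 of the 681 members were above background in both channels on all arrays. No paired analysis was possible because there is only 1 *din1Δ* array, and the slide it shares with *dhp1-1* replicate 1 gives a single difference (0.38) with no test.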
